A study of Mus musculus with 2 samples.

Results

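Arterial cells and Gpihbp1/Aqp1 capillary cells were compared in 2 single-cell RNA libraries of mouse intestinal endothelium. The classes were defined by raw UMIs (unique molecular identifiers, each counting 1 captured RNA molecule) of 18 genes. Cells entered with 500 genes or more and a mitochondrial share of UMIs of up to 15%. Among them, blood endothelial cells had at least 5 UMIs over Flt1, Cd34, Plvap and Esam, at most 2 over the lymphatic genes Mmrn1, Lyve1, Reln and Prox1, and at most 1 over the venous genes Ackr1, Selp and Madcam1. A cell was called arterial with at least 3 UMIs over Sema3g, Fbln5, Stmn2, Gja5 and Bmx, together termed arterial UMIs. It was called Gpihbp1/Aqp1 capillary with at most 1 arterial UMI and at least as many Gpihbp1 plus Aqp1 UMIs as Plvap UMIs. The arterial class held 1097 cells (163 in library 1 and 934 in library 2) and the Gpihbp1/Aqp1 capillary class 1143 (195 and 948), together 2240 of the 7045 cells that passed the filter. Cells with at most 1 arterial UMI but more Plvap than Gpihbp1 plus Aqp1 UMIs, 301 and 2051, formed a Plvap-high capillary class that was used for comparison.

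Both libraries were labelled small intestine, genotype wild-type, strain C57Bl/6, male, with an age of 8 weeks and no treatment, and formed 1 group (n = 2). The ileum was the source, and cells without EpCAM (epithelium) and CD45 (leukocytes) but with CD31 (endothelium) were sorted as a podoplanin-negative blood and a podoplanin-positive lymphatic endothelial fraction. The labels tie no cell to a fraction and leave it unsaid if each library had its own mouse. P-values therefore set the differences between classes only against their variation from library to library, which may be technical. The estimate of that variation was mostly borrowed across genes.

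Arteries carry blood under pressure and are lined by endothelium with a thick elastic and basement membrane support. Arterial identity is set up by VEGF and Notch signalling and by SOX17-family and HEY factors. Capillary endothelium exchanges fluid, lipids and gases with the tissue: GPIHBP1 carries lipoprotein lipase to the capillary lumen, CD36 takes up fatty acids, and AQP1 is a water channel. PLVAP forms the diaphragms of fenestrae and caveolae, which are abundant in the capillaries of intestinal villi.

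The promoters of 3 genes that the results turn on are shown for orientation: Gja4 (connexin 37, a gap junction protein) for the arterial side, and Cd36 (fatty acid uptake) and Timp4 (an inhibitor of matrix metalloproteinases) for the capillary side. Each is the 250 bases before the gene's start from RefSeq, build GRCm38.p6, minus strand. They lie at chr4:127314040-127314289 (Gja4), chr5:17835897-17836146 (Cd36) and chr6:115252206-115252455 (Timp4). Capitals mark matches to 5 short motifs searched on both strands: TGGGAA (RBPJ, the Notch effector), AACAAT (SOX), CACCC (KLF), TAATTA (homeobox) and CAAGTG (NKX2).
Gja4: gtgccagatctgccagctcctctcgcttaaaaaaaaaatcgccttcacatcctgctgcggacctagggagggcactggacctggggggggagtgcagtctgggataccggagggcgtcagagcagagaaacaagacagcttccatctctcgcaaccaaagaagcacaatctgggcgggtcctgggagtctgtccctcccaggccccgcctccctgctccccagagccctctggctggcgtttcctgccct
Cd36: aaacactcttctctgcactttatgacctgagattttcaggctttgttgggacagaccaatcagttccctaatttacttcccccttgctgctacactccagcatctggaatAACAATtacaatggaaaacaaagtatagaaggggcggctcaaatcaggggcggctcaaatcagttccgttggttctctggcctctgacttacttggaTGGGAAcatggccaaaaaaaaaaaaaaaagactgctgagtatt
Timp4: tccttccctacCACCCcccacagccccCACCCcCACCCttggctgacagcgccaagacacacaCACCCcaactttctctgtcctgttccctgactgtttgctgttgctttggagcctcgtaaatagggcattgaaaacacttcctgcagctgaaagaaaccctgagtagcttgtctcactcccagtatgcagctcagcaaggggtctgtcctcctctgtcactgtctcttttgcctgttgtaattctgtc
The Cd36 window held 1 SOX and 1 RBPJ match, the Timp4 window 4 KLF matches, and the Gja4 window none of the 5. How often these letters occur in promoters varied widely between the motifs. TGGGAA was found in 20.3% of the 10665 promoters of tested genes, in 19.4% of those of genes higher in arterial cells and in 21.5% of those of genes lower. CACCC was found in 57.2, 64.1 and 60.4%, and AACAAT in 5.29, 5.39 and 6.99%. TAATTA was found in 2.23, 1.48 and 2.69%, and CAAGTG in 9.24, 9.69 and 10.7%. A match is a description of the letters and not a binding site.

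The genes of the rule are described first, without a test, because they chose the cells. Sema3g gave 34.6 and 34.8% of the arterial UMIs of arterial cells in libraries 1 and 2, Fbln5 26.3 and 27.2%, Stmn2 24.9 and 26.9%, Gja5 9.26 and 7.20% and Bmx 5.03 and 3.81%. Levels are given as CPM, the UMIs of a gene per 1000000 UMIs of the class in that library. Plvap stood at 2691 and 2551 CPM in arterial cells of libraries 1 and 2, 280.2 and 396 in Gpihbp1/Aqp1 capillary cells and 4662 and 4660.3 in Plvap-high capillary cells. Aqp1 stood at 954 and 563 CPM in arterial cells, 5869 and 4567 in Gpihbp1/Aqp1 capillary cells and 136 and 129 in Plvap-high cells, and Gpihbp1 at 379 and 347, 1868 and 1635 and 114 and 113. The arterial class was therefore not free of the capillary genes. Plvap exceeded Gpihbp1 plus Aqp1 in 77.3 and 73.9% of its cells, and 76.1 and 71.6% had no Gpihbp1 UMI. Among Gpihbp1/Aqp1 capillary cells, 94.4 and 89.6% held a Gpihbp1 UMI, 88.7 and 82.5% an Aqp1 UMI, 1.03 and 1.58% neither, and 72.8 and 63.0% had no Plvap UMI.

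**Figure D1:**
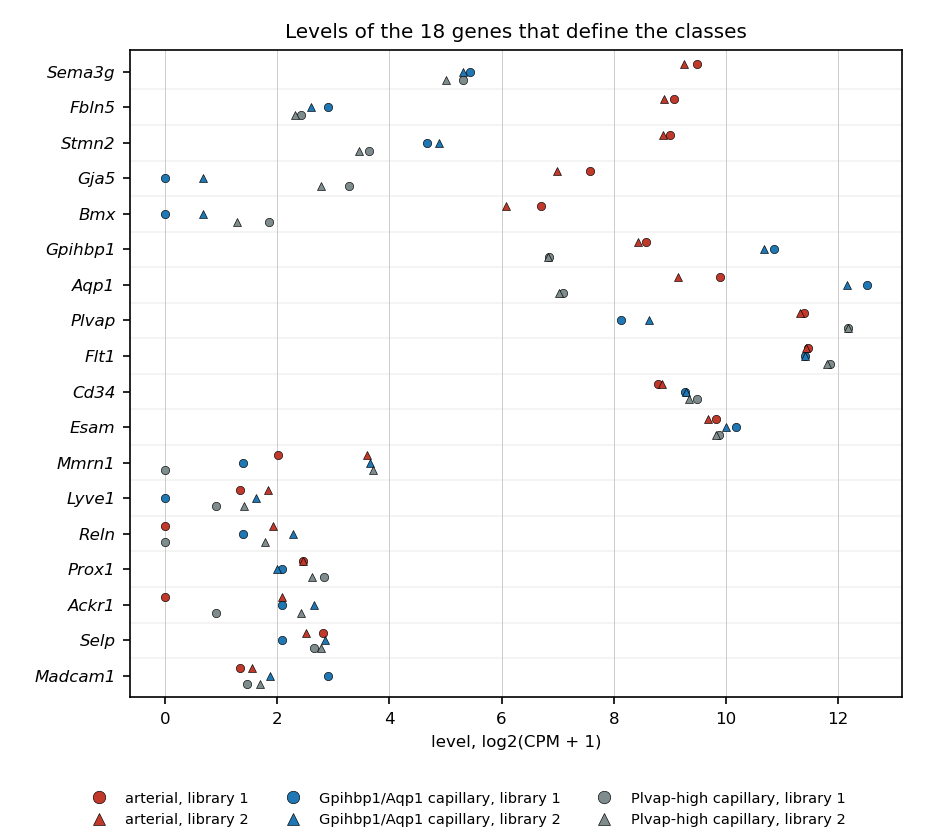
Levels of the 18 genes that define the classes, as log2(CPM + 1) on the horizontal axis, one symbol per class and library (circles library 1, triangles library 2). The 5 arterial genes are highest in arterial cells, Gpihbp1 and Aqp1 in Gpihbp1/Aqp1 capillary cells and Plvap in Plvap-high cells, because the rule chose the cells by them.

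At the edge of the rule, 38.0 and 37.3% of arterial cells had 3 or 4 arterial UMIs and 26.4 and 30.2% had 10 or more. Just outside it, 76 and 349 cells had 2 arterial UMIs and belonged to no class. In the capillary class, 3.08 and 4.01% of cells had as many Gpihbp1 plus Aqp1 as Plvap UMIs, and 2.33 and 1.56% of Plvap-high cells were 1 UMI short of it.

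Library 1 held 1026 barcodes and 3806199 UMIs and library 2 held 6302 and 26645476, with 2 barcodes in common. The class sums were 664891 and 4671959 UMIs for arterial cells and 613938 and 3381476 for Gpihbp1/Aqp1 capillary cells. Arterial cells were deeper, with medians of 3626 and 4499.5 UMIs per cell against 2896 and 3237. Their median mitochondrial shares were 2.10 and 2.60% against 1.83 and 2.06%. Results from cells thinned to 2000 UMIs are given with the shares of cells at the end.

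Of 10677 genes tested, 2145 (20.1%) differed between arterial and Gpihbp1/Aqp1 capillary cells at an adjusted p of 0.05 in edgeR's quasi-likelihood test, with the library as a block. 1239 (11.6%) were higher and 906 (8.49%) lower in arterial cells. With no scaling beyond the total UMIs of each sum, the calls were 987 higher and 1191 lower, and the median log2 fold change of all genes moved from -0.01 to -0.11. Changes over 4-fold in size (log2 above 2 or below -2) were found for 197 genes that rose and 100 that fell. Of the called genes, 98.5% had 1 direction across the libraries, where 65.7% of all tested genes did, and the CPM of the classes did not overlap in 90.9%, against 47.2%. The calls were chosen on the same values, so these shares only describe them. Where single genes are said below not to overlap, this is likewise only a description, since 47.2% of all tested genes did not. All fold changes below are fitted values, arterial minus Gpihbp1/Aqp1 capillary on the log2 scale, with their standard error, and all adjusted p-values are edgeR's over the 10677 genes.

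**Figure D2:**
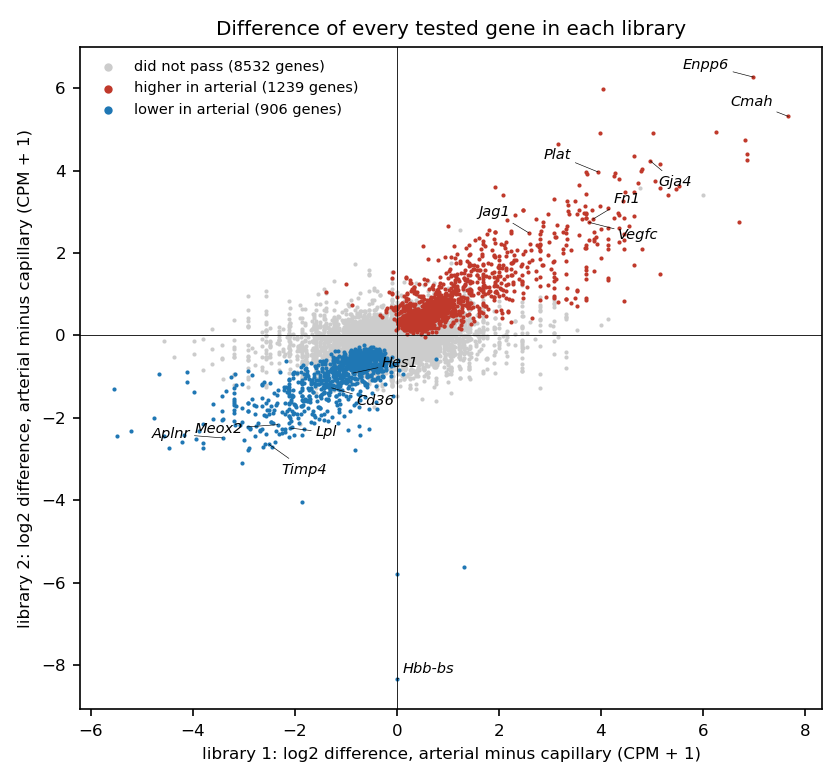
Difference of every tested gene in library 1 (horizontal) and library 2 (vertical), as log2(CPM + 1) in arterial minus Gpihbp1/Aqp1 capillary cells. The 1239 genes called higher lie almost all in the upper right and the 906 called lower in the lower left, and Hbb-bs stands apart with 0 in library 1.

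The 15 largest increases were led by Enpp6, a choline phosphodiesterase, with 126 and 76.2 CPM in arterial cells of libraries 1 and 2 and no UMI in 1143 capillary cells, so it was at least 109.8-fold higher (adjusted p 1.37e-18). Gja4 stood at 439 and 458 CPM against 13.0 and 23.4, a rise of 4.50 ± 0.14 (adjusted p 7.45e-26). Plat, the tissue plasminogen activator, stood at 615 and 668 against 39.1 and 41.7 CPM, a rise of 4.08 ± 0.12 (adjusted p 1.38e-26). The classes did not overlap for any of these 3 genes. Clu, the extracellular chaperone clusterin, stood at 651 and 713 against 30.9 and 49.98 CPM and rose by 4.06 ± 0.12. Cmah, which makes the sialic acid N-glycolylneuraminic acid, stood at 537 and 439 against 1.63 and 10.1 CPM and rose by 5.80 ± 0.18. The tetraspanin Tspan8 stood at 304 and 391 against 1.63 and 17.4 CPM (4.80 ± 0.18). The capillary level of Cmah and of Tspan8 was several-fold lower in library 1 than in library 2.

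Secreted regulators were among these increases. Dkk2, a Wnt modulator, stood at 113 and 81.6 CPM against 0 and 2.07 (5.69 ± 0.32, adjusted p 7.55e-18). Nov (CCN3), a matricellular protein, stood at 141 and 158 against 9.77 and 9.46 CPM (4.12 ± 0.19). Pcsk5, a proprotein convertase that activates secreted precursors, stood at 117 and 109 against 3.26 and 5.91 CPM (4.44 ± 0.24). For each of them both arterial values lay above both capillary values. Igfbp4, which binds insulin-like growth factors, stood at 1439 and 1180.0 against 11.4 and 60.3 CPM (4.76 ± 0.49, adjusted p 0.0350). Its capillary level differed about as widely between the libraries as for Cmah, and its call was lost when only the 4 sums of both classes were fitted (adjusted p 0.275), without the filter on low counts (0.0907) and with only arterial cells of 3 or 4 arterial UMIs (0.0661), at log2 fold changes of 4.77, 4.76 and 4.29. The actin-binding coronin Coro2a had 315 UMIs in arterial and 3 in capillary cells, a ratio of CPM of 78.6 with an exact 95% interval of 26.7 to 383 for counting error only. The other 4 were Mal, a membrane raft protein (5.28 ± 0.20), the synaptotagmin Syt15 (4.55 ± 0.18), Pcx, the pyruvate carboxylase (4.38 ± 0.25), and the solute carrier Slc45a4 (4.26 ± 0.27).

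The 15 largest decreases included transporters, channels and cytoskeletal genes. Slc28a2, a nucleoside transporter, stood at 37.6 and 31.7 CPM in arterial and 285 and 215 in capillary cells, a change of -2.70 ± 0.13 (adjusted p 1.74e-19). Timp4 stood at 158 and 114 against 899 and 721 CPM, a change of -2.51 ± 0.10 (adjusted p 8.44e-23). Aplnr, the receptor of apelin, stood at 21.1 and 27.2 against 235 and 157 CPM, a change of -2.61 ± 0.15 (adjusted p 2.27e-17). No arterial value of these 3 reached a capillary value. Car4, a membrane-anchored carbonic anhydrase, stood at 85.7 and 93.8 against 412 and 487 CPM (-2.27 ± 0.11). The flavin monooxygenase Fmo1 stood at 46.6 and 36.4 against 248 and 223 (-2.46 ± 0.13), and the glutamate transporter Slc1a1 at 24.1 and 17.8 against 155 and 89.3 (-2.35 ± 0.21). The voltage-gated potassium channel Kcna5 (-2.31 ± 0.14) fell by a like amount. So did Mtss1, which bends membranes on actin (-2.46 ± 0.17), the actin bundler Fscn1 (-2.33 ± 0.18), the coronin Coro6 (-2.65 ± 0.22) and the cadherin Cdh23 (-2.42 ± 0.24). Samd5 (-2.61 ± 0.21), Trp53i11 (-2.53 ± 0.13) and Vwa3a (-2.34 ± 0.24) were also among them.

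**Figure D3:**
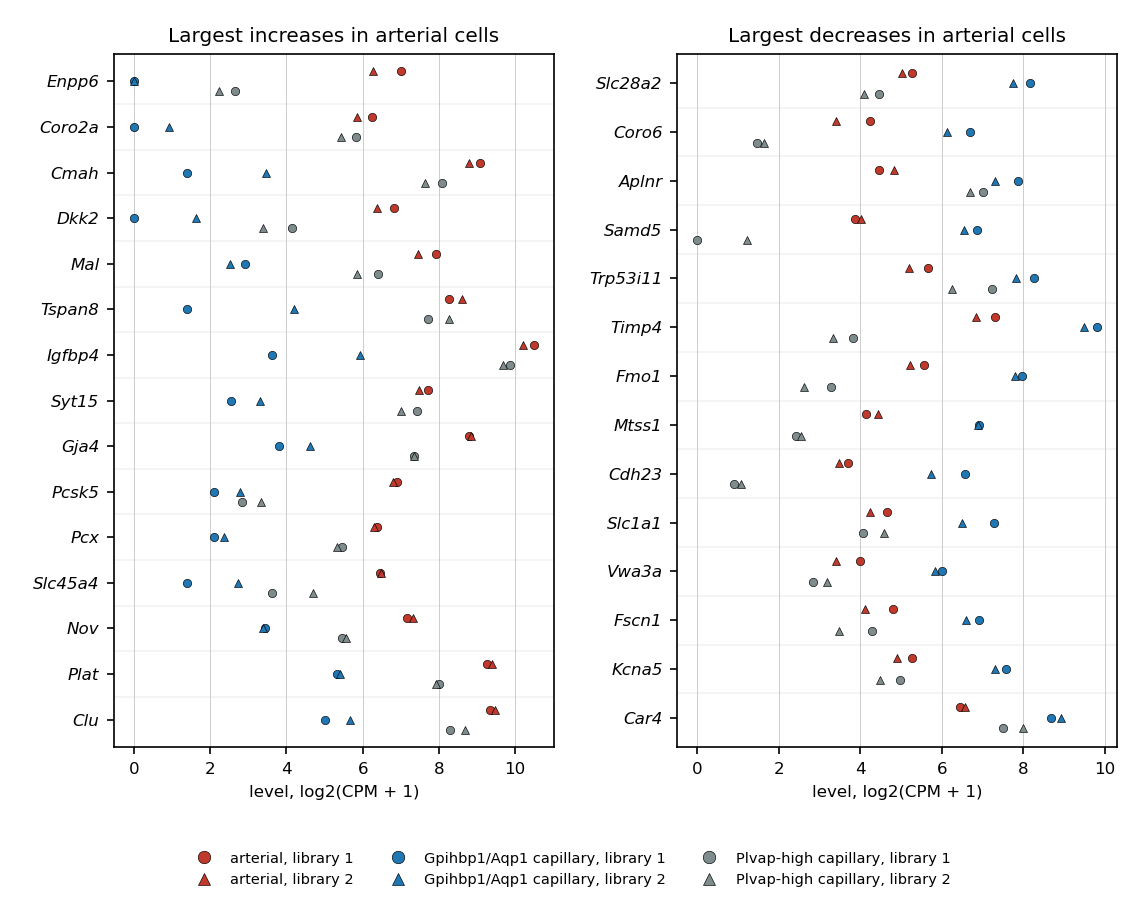
Levels of the 15 largest increases (left) and of 14 of the 15 largest decreases (right), as log2(CPM + 1) in arterial, Gpihbp1/Aqp1 capillary and Plvap-high capillary cells of each library. Both libraries place arterial above capillary on the left and below it on the right, while the Plvap-high values lie at varying heights between or beyond them.

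The list of arterial markers was tested on 24 genes that are no part of the rule. Like the other lists, it was chosen with earlier results of these data known, so its counts are no independent check. Of the 24 genes, 20 were higher in arterial cells, 1 was lower and 3 did not pass, with a median log2 fold change of 1.56. Over all genes tested, 11.6% were higher and 8.49% lower, with a median of -0.01. Fn1 (fibronectin) stood at 271 and 334 CPM against 17.9 and 46.4 (3.102 ± 0.150), and Vegfc, a ligand of VEGF receptors, at 168 and 209.8 against 11.4 and 30.5 (3.01 ± 0.16). Edn1, which encodes the vasoconstrictor endothelin 1, stood at 371 and 398 against 121 and 132 CPM (1.71 ± 0.11), and Eln, the elastin gene, at 218 and 204 against 53.8 and 56.8 (1.98 ± 0.12). None of these 4 overlapped between the classes. The ephrin ligand Efnb2, an early arterial marker, stood at 472 and 417 against 208 and 194 CPM (1.23 ± 0.10). S100a4 had 320 UMIs in arterial and 1 in capillary cells, a ratio of 239.6 (exact 95% interval 42.7 to 9492). Gkn3 had 76 UMIs in arterial cells and none in capillary cells, so it was at least 19.0-fold higher. Cytl1 stood at 104 and 41.3 against 0 and 5.32 CPM (3.64 ± 0.43) and Tm4sf1 at 2939 and 3273 against 1075 and 1587 (1.32 ± 0.07). Smaller increases were found for Mecom (0.77 ± 0.09), Unc5b (0.97 ± 0.11), Ltbp4 (1.04 ± 0.08), Alpl (1.27 ± 0.13) and Crip1 (0.46 ± 0.08).

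Members that did not follow the list were measured as well. The chemokine gene Cxcl12 stood at 2594 and 2264 CPM in arterial cells and 4171 and 3603 in Gpihbp1/Aqp1 capillary cells and fell by 0.58 (adjusted p 4.11e-10). Dll4, the Notch ligand of arterial and tip cells, stood at 338 and 365 against 363 and 239 CPM, where the libraries went in opposite directions (0.45 ± 0.18, adjusted p 0.131). Sox17, an arterial transcription factor, stood at 387 and 539.6 against 562 and 627 CPM (-0.24 ± 0.09, adjusted p 0.0635). Mgp, an inhibitor of calcification, stood at 603 and 346 against 21.2 and 27.8 CPM (4.06 ± 0.90), and did not pass (adjusted p 0.134) although the classes did not overlap.

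The capillary marker list went the other way: of 20 tested members, 16 were lower in arterial cells, 2 higher and 2 did not pass (Sgk1, -0.20 ± 0.10, and Prx, -0.70 ± 0.64), with a median of -1.13. These counts stand beside 8.49% lower and 11.6% higher over all genes tested. The fatty acid binding protein Fabp4 stood at 5708 and 7588 CPM in arterial and 14104 and 17448 in capillary cells (-1.15 ± 0.05, adjusted p 1.83e-20). Cd36 stood at 1537 and 1521 against 3730.0 and 3677 CPM (-1.18 ± 0.06, adjusted p 2.61e-18). Rgcc, a regulator of the cell cycle, stood at 263 and 338 against 953 and 1116 CPM (-1.67 ± 0.08). UMIs of these 3 genes were found in both classes, and the values of the classes did not overlap. Cd300lg, a mucin-like receptor of capillaries, stood at 229 and 169.5 against 663 and 697 CPM (-1.78 ± 0.10), and Kdr, the main VEGF receptor, at 926 and 977 against 1409 and 1263 (-0.38 ± 0.07). Apln, the gene of the ligand apelin, had 2 UMIs in arterial and 69 in capillary cells, a ratio of CPM of 46.1 in favour of capillary cells (exact 95% interval 12.3 to 388). The exceptions were Esm1 (endocan), with 107 and 92.0 against 19.5 and 35.2 CPM (1.66 ± 0.16), and Ehd4, an endocytic trafficking gene, with 728 and 698 against 217 and 306 (1.48 ± 0.09). With only the arterial cells whose arterial UMIs exceeded Plvap, Gpihbp1 and Aqp1 together, the value of Esm1 was -0.55 ± 0.46 and did not pass (adjusted p 0.544). Both genes were higher still in Plvap-high cells, at 325 and 333 and 1216 and 1362 CPM.

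The lipid handling list had 22 tested members, of which 14 were lower in arterial cells, 3 were higher and 5 did not pass (median -1.07). All genes tested gave 8.49% lower and 11.6% higher. Lpl, lipoprotein lipase, stood at 117 and 70.2 CPM in arterial and 502 and 337 in capillary cells (-2.12 ± 0.10, adjusted p 2.34e-19). Angptl4, a secreted inhibitor of that enzyme, stood at 12.03 and 5.35 against 79.8 and 40.2 CPM (-2.77 ± 0.29). Aqp7, a channel for glycerol, stood at 99.3 and 104 against 384 and 417 CPM (-1.91 ± 0.13). Meox2, a homeobox factor known for fatty acid transport in heart capillaries, stood at 76.7 and 77.7 against 391 and 352 CPM (-2.12 ± 0.11). The enzyme, its inhibitor, the channel and the factor thus stood lower in arterial cells in both libraries.

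**Figure D4:**
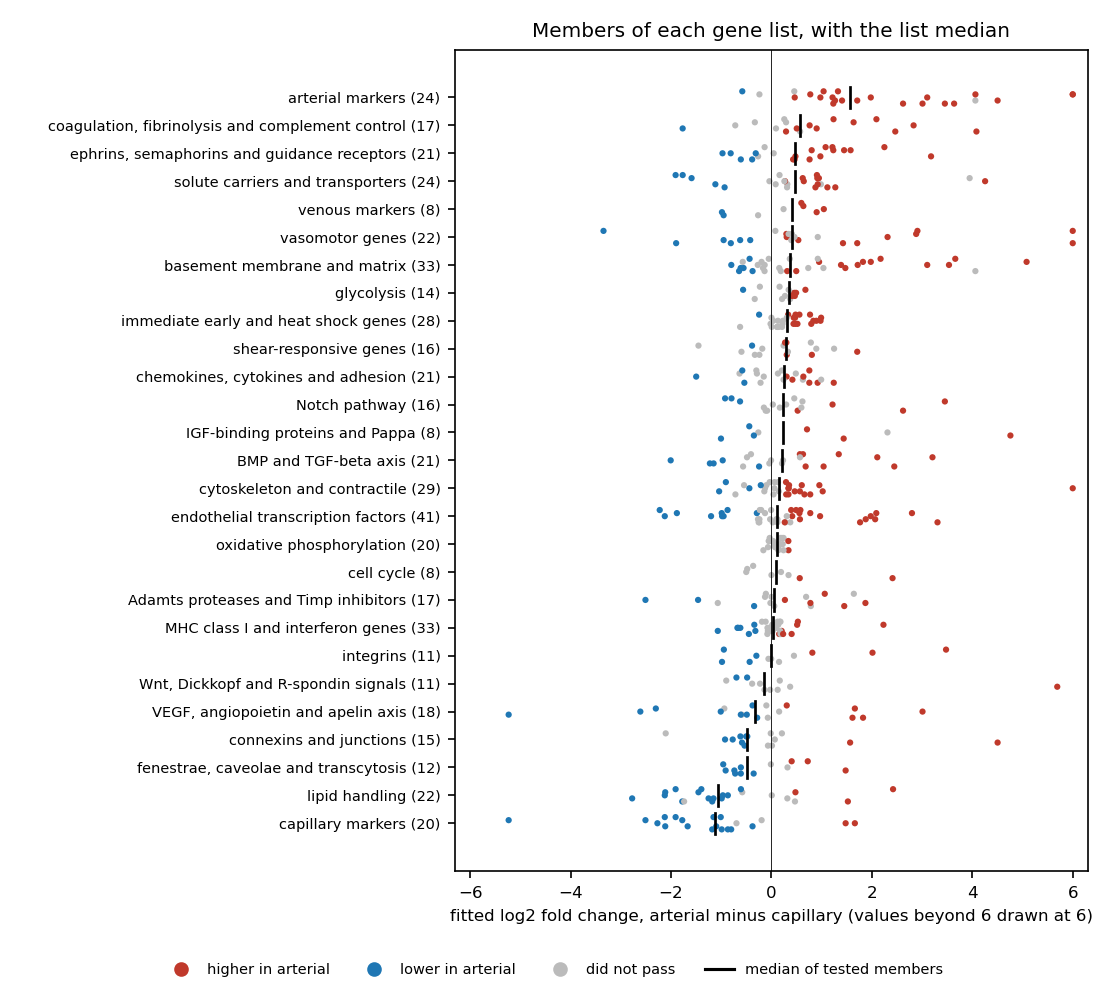
Fitted log2 fold change, arterial minus Gpihbp1/Aqp1 capillary, of each tested member of the gene lists (number tested in brackets), with the median of each list as a black bar. The arterial markers have the highest median (1.56) and the capillary markers (-1.13) and lipid handling (-1.07) the lowest.

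Notch pathway members split, beside 11.6% higher and 8.49% lower over all genes tested. Of 16 tested, 4 rose, 3 fell and 9 did not pass (median 0.23). In single libraries, as log2(CPM + 1) without scaling, the median was -0.11 in library 1 and 0.16 in library 2, beside -0.09 and -0.10 over all genes tested. The ligand Jag1 stood at 356 and 318 CPM in arterial and 58.6 and 55.6 in capillary cells (2.62 ± 0.12, adjusted p 1.85e-20). The target genes moved in opposite directions. Hey1 stood at 194 and 202 against 106 and 88.1 CPM (1.22 ± 0.12), and Hey2 at 16.5 and 18.6 against 1.63 and 1.77 (3.45 ± 0.42), whereas Hes1 stood at 686 and 696 against 1246 and 1313 and fell by 0.80 (adjusted p 1.98e-11). Lfng and Mfng, which add sugars to Notch receptors, also fell, with -0.92 ± 0.19 and -0.63 ± 0.15.

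The list counts that follow stand beside 11.6% higher and 8.49% lower over all genes tested. Of 18 tested members of the list for VEGF, angiopoietins and apelin, 5 rose and 8 fell (median -0.33). Among ligands, Vegfa stood at 43.6 and 50.3 CPM in arterial and 14.7 and 14.8 in capillary cells (1.82 ± 0.22) beside the increase of Vegfc, while Angpt2, an antagonist of the TIE2 receptor in many settings, stood at 6.02 and 10.5 against 73.3 and 46.1 (-2.30 ± 0.26). The receptor genes Kdr and Aplnr both fell, as given above. In the BMP and TGF-beta axis, 8 of 21 tested genes rose and 5 fell (median 0.21, but 0.64 in library 1 and -0.03 in library 2 alone). The ligand gene Tgfb2 stood at 76.7 and 115 against 6.52 and 13.9 CPM (3.21 ± 0.20), the receptor gene Tgfbr2 at 784 and 647 against 116 and 141 (2.45 ± 0.10) and the inhibitory Smad6 at 61.7 and 69.6 against 14.7 and 17.4 (2.11 ± 0.20). The BMP ligands went the other way: Bmp6 stood at 42.1 and 35.1 against 181 and 152 CPM (-2.01 ± 0.14) and Bmp4 at 28.6 and 17.3 against 48.9 and 48.5 (-1.23 ± 0.23). Of 21 tested ephrins, semaphorins and guidance receptors, 13 rose and 5 fell (median 0.48). They included Plxna4 (1.58 ± 0.18), Sema3f (1.45 ± 0.12), Plxnb2 (1.21 ± 0.19) and Epha2 (1.08 ± 0.16). Of 11 tested Wnt, Dickkopf and R-spondin genes 8 did not pass. Dkk2 rose, and the co-receptor gene Lrp5 (-0.48 ± 0.12) and Tcf4 (-0.70 ± 0.07), which encodes the E protein E2-2, fell, beside 11.6% higher and 8.49% lower over all genes tested, so the counts say little about this list.

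Matrix and contact genes differed in kind, and their counts stand beside 11.6% higher and 8.49% lower over all genes tested. Of 33 tested genes of basement membrane and matrix, 13 rose, 6 fell and 14 did not pass (median 0.37, but 0 in library 1 and 0.43 in library 2 alone). Besides Fn1, Col18a1 stood at 45.1 and 40.2 CPM in arterial and 1.63 and 3.84 in capillary cells (3.66 ± 0.34), Col8a1 at 36.1 and 44.1 against 1.63 and 4.44 (3.54 ± 0.35) and Fbn1, the microfibril gene fibrillin 1, at 156 and 104 against 30.9 and 26.0 (2.17 ± 0.16). Lox, which cross-links elastin and collagen, had 128 UMIs against 3, a ratio of 31.9 (exact 95% interval 10.7 to 157). Of 11 integrins, 3 rose and 4 fell. Itgb4, the beta subunit of a laminin receptor, stood at 176 and 152 against 14.7 and 15.1 CPM (3.48 ± 0.16), but its partner Itga6 at 502 and 460.0 against 1088 and 917 (-0.95 ± 0.08). Of 15 connexins and junction genes, Gja4 and Cgnl1 (1.57 ± 0.17) rose and 7 fell (median -0.48), among them the adherens junction cadherin Cdh5, at 997 and 957 against 1683 and 1542 CPM (-0.62 ± 0.07), Cdh13 (-0.92 ± 0.11) and Jam2 (-0.77 ± 0.08). Of 12 genes of fenestrae, caveolae and transcytosis, 3 rose and 7 fell (median -0.48). The caveolar genes differed in direction: Cavin2 (-0.96 ± 0.07) and Cav2 (-0.74 ± 0.09) fell and Cavin3 (0.72 ± 0.10) rose.

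Vessel tone and clotting were described by 3 lists, beside 11.6% higher and 8.49% lower over all genes tested. Of 22 vasomotor genes, 10 rose and 6 fell (median 0.40). Ace, which makes angiotensin II, stood at 932 and 853 CPM in arterial and 104 and 132 in capillary cells (2.91 ± 0.10, adjusted p 2.95e-22), and the natriuretic peptide clearance receptor Npr3 at 113 and 60.1 against 21.2 and 13.6 (2.31 ± 0.20). The values of the classes did not overlap for either gene. Channel genes were found at low levels: Kcnn4 had 90 UMIs in arterial cells and none in capillary cells, at least 22.5-fold higher, and Trpv4 had 91 against 1, a ratio of 68.1 (exact 95% interval 11.9 to 2720.1). Of 17 coagulation, fibrinolysis and complement control genes, 10 rose and 1 fell (median 0.57). Procr, the protein C receptor, stood at 104 and 77.7 against 16.3 and 21.9 CPM (2.09 ± 0.19), Entpd1, which degrades ATP and ADP, at 465 and 383 against 132 and 143 (1.64 ± 0.10) and the protease inhibitor Serpine2 at 57.2 and 36.6 against 3.26 and 6.51 (2.83 ± 0.27). Of 16 shear-responsive genes, 5 rose, 1 fell and 10 did not pass (median 0.28, but 0.30 in library 1 and 0.004 in library 2 alone). Heg1 stood at 511 and 583 against 319 and 353 CPM (0.80 ± 0.09), Nos3, the endothelial nitric oxide synthase, at 242 and 249 against 191 and 227 (0.30 ± 0.11, adjusted p 0.0394), and Klf2 at 1212 and 1412 against 829 and 1446 (0.30 ± 0.10, adjusted p 0.0484), where library 2 showed no increase. Both calls were close to the threshold: Nos3 did not pass under 9 and Klf2 under 10 of 21 alternatives, with adjusted p-values of up to 0.452 and 0.708. With no scaling these were 0.207 and 0.241, and with no replicate block 0.442 and 0.708. With only arterial cells of 3 or 4 arterial UMIs, the value of Nos3 was -0.20 ± 0.13 (adjusted p 0.452).

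Among 41 tested endothelial transcription factors, 16 rose, 9 fell and 16 did not pass (median 0.12). All genes tested gave 11.6% higher and 8.49% lower. Nkx2-3, a homeobox factor of gut vessels, stood at 427 and 479 CPM in arterial and 40.7 and 52.9 in capillary cells (3.31 ± 0.11, adjusted p 3.46e-24). The transcriptional repressor Prdm1 stood at 167 and 125 against 19.5 and 40.5 CPM (1.98 ± 0.17) and the LIM domain factor Lmo2 at 284 and 203 against 57.0 and 55.9 (2.07 ± 0.12). On the capillary side, Meox2 was joined by Tshz2, at 134 and 110.2 against 700.4 and 558 CPM (-2.23 ± 0.16), and Tcf15, at 308 and 321 against 632 and 702 (-0.99 ± 0.09).

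The counts of the lists in this paragraph stand beside 11.6% higher and 8.49% lower over all genes tested. Of 24 solute carriers and transporters, 11 rose and 5 fell (median 0.47). The efflux pump Abcg2 stood at 159 and 104 CPM in arterial and 454 and 353 in capillary cells (-1.59 ± 0.10), and the organic anion transporters differed in direction, Slco3a1 rising by 1.27 ± 0.16 and Slco2b1 changing by -1.77 ± 0.14. Of 8 IGF-binding protein and related genes, 3 rose and 3 fell. Igfbp3 stood at 1271 and 1228 against 489 and 494 CPM (1.44 ± 0.07), and the receptors Igf1r (-0.44 ± 0.11) and Igf2r (-1.01 ± 0.13) were lower. Of 17 Adamts proteases and Timp inhibitors, 5 rose and 3 fell, and the inhibitors split: Timp2 (1.45 ± 0.21) and Timp3 (0.78 ± 0.08) rose and Timp4 fell. Adamts4 stood at 307 and 298 against 50.5 and 101 CPM (1.87 ± 0.14).

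Lists of immune and general cell state were counted in the same way, beside 11.6% higher and 8.49% lower over all genes tested. Of 33 MHC class I and interferon genes, 7 rose, 7 fell and 19 did not pass (median 0.02). Ifitm1 stood at 22.6 and 66.4 CPM against 6.52 and 14.8 (2.23 ± 0.22), and Ifit1 (-1.07 ± 0.14) fell. Of 20 genes of oxidative phosphorylation 2 rose, near the 11.6% of all genes tested, and 0 fell, so the counts say little about this list. Of 14 genes of glycolysis 5 rose and 1 fell. Of 8 cell cycle genes 2 rose. Of 29 cytoskeletal and contractile genes 14 rose and 4 fell, with Lmna (1.02 ± 0.09) and S100a6 (0.95 ± 0.09) among the increases. Of 21 chemokines, cytokines and adhesion genes 7 rose and 3 fell, with Icam1 at 600.1 and 456 against 313 and 326 CPM (0.75 ± 0.10). Of 28 immediate early and heat shock genes 14 rose and 1 fell (median 0.32), with Nfkbia (0.99 ± 0.08), Socs3 (0.89 ± 0.07) and Hspa1a (0.98 ± 0.08) among the increases. In single libraries without scaling, the median was 0.42 in library 1 and 0.13 in library 2, with 27 and 17 of the 28 genes above 0. The 28 genes summed to 29906 and 31510 CPM in arterial cells of libraries 1 and 2 against 22515 and 29063 in capillary cells, with all 28 detected in each. Such genes are known to respond to tissue dissociation, and their part in the other differences was not tested. Of 8 venous markers 4 rose and 2 fell: Vwf stood at 371 and 346 against 195 and 205 CPM (0.90 ± 0.10), and the venous factor Nr2f2 at 24.1 and 27.4 against 42.3 and 58.6 (-0.95 ± 0.19).

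Markers of other cell types were measured in both classes, beside 11.6% higher and 8.49% lower over all genes tested. The 14 markers of pericytes and smooth muscle summed to 197 and 397 CPM in arterial cells and 337 and 492 in capillary cells, with 2 of 14 at 0 in library 1 of each class. Of 11 tested, none rose, 2 fell and 9 did not pass (median -0.37). The 2 were Kcnj8, a pericyte potassium channel, at 1.504 and 1.71 against 37.5 and 14.5 CPM (-3.34 ± 0.56), and the smooth muscle actin Acta2, at 9.02 and 88.6 against 4.89 and 132 (-0.44 ± 0.15, adjusted p 0.0290). The libraries went in opposite directions for Acta2, and its direction turned under 6 of the alternatives. The 10 markers of fibroblasts summed to 43.6 and 524 CPM against 89.6 and 573, far higher in library 2 in both classes. Of 9 tested, 1 rose, 1 fell and 7 did not pass (median -0.08). Pi16 stood at 22.6 and 24.0 CPM against 1.63 and 0 and rose, and Dpt, which encodes the matrix protein dermatopontin, stood at 0 and 26.8 against 1.63 and 55.3 CPM and fell (-0.95 ± 0.22, adjusted p 0.00102). The call of Dpt rests on library 2, and its direction turned under 2 of the alternatives. The 12 leukocyte markers summed to 4.51 and 33.4 CPM against 4.89 and 45.5, with 10 and 5 of them at 0 in arterial cells, and the 10 epithelial markers to 18.05 and 23.5 against 48.9 and 26.6. None of the 3 leukocyte and 4 epithelial markers tested passed. The 6 erythrocyte markers summed to 3.01 and 17.98 CPM in arterial cells and 0 and 2935 in capillary cells, so that in library 2 they stood above Gpihbp1 in the capillary class. The haemoglobin genes Hbb-bs, Hba-a1 and Hba-a2 passed as lower in arterial cells, with Hbb-bs at 0 and 4.28 against 0 and 1710.2 CPM, but this rests on library 2, since capillary cells of library 1 had no UMI of them. With capillary cells of 0 arterial UMIs only, which kept 700 of 948 in library 2, Hba-a1 turned to 7.23 ± 1.46. The Hba-a1 UMIs of the capillary class thus lay almost wholly in its cells with 1 arterial UMI. How many cells held them was not counted, so the sum is no level of the class at large. Without cells holding 2 or more UMIs of pericyte, fibroblast, leukocyte, epithelial or erythrocyte markers, 2104 of 10247 genes tested were called.

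The Plvap-high capillary cells were set beside both classes. The contrasts share class sums, so their calls are not independent, and the levels are given side by side. Against Plvap-high cells, 3053 genes (28.6%) differed in Gpihbp1/Aqp1 capillary cells and 1708 (16.0%) in arterial cells, with 8.88% of all tested genes higher and 7.12% lower in arterial cells. Markers of other cells differed between these classes too. The 10 epithelial markers summed to 18.4 and 706 CPM in Plvap-high cells, of which Reg3b gave 0 and 530.02, and the 14 of pericytes and smooth muscle to 123 and 152. Without cells holding 2 or more UMIs of other cell types, 2940 and 1520 genes differed. Of the 15 largest increases, 5 had a Plvap-high level of at least 50% of the arterial level in both libraries, 3 were under 25% and 7 lay between. Tspan8 stood at 209 and 304 CPM and Igfbp4 at 937 and 825 in Plvap-high cells, levels near the arterial ones and far above the Gpihbp1/Aqp1 capillary ones. Enpp6 at 5.25 and 3.66, Dkk2 at 16.6 and 9.43 and Pcsk5 at 6.13 and 8.98 CPM were the 3 that stayed low in both capillary classes. Among the other increases named, Tgfbr2 at 1084 and 847 CPM, Nkx2-3 at 596 and 596, Hey2 at 35.0 and 37.9, Igfbp3 at 1596 and 1536, Serpine2 at 91.0 and 72.5 and Adamts4 at 446 and 489 were higher in Plvap-high than in arterial cells, and each of these differences passed the test. Fn1 at 3.50 and 12.4, Vegfc at 13.1 and 11.3, Edn1 at 33.3 and 44.0, Alpl at 16.6 and 10.8 and Jag1 at 129.5 and 91.4 CPM were highest in arterial cells, and their differences from Plvap-high cells passed the test as well. Gkn3 had no UMI in Plvap-high cells either. Ace, Itgb4, Vegfa and Prdm1 were not confined to arterial cells. In library 1 cells with 0 arterial UMIs, which pool both capillary classes, they stood at 504, 88.6, 38.9 and 139 CPM. Each was above its level in Gpihbp1/Aqp1 capillary cells of that library. The pool includes the latter cells and can thus understate Plvap-high levels, and its Vegfa value lay near the arterial one of library 1.

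Of the 15 largest decreases, 11 were lower in Plvap-high than in arterial cells of both libraries and 3 were higher. Timp4 stood at 13.1 and 9.09 CPM in Plvap-high cells, and Fmo1 at 8.75 and 5.10, Samd5 at 0 and 1.33 and Cdh23 at 0.875 and 1.11, all below the arterial values. Aplnr at 128 and 103, Trp53i11 at 149.7 and 74.7 and Car4 at 180.3 and 256 CPM lay between arterial and Gpihbp1/Aqp1 capillary levels. Among the lipid genes, Lpl at 12.3 and 7.43, Aqp7 at 5.25 and 19.3 and Meox2 at 4.38 and 5.88 CPM were lower in Plvap-high than in arterial cells. Bmp6 at 6.13 and 2.55 and Cdh13 at 15.8 and 15.9 CPM showed the same order. These 5 differences passed the test.

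Levels in the arterial class varied with the number of arterial UMIs. Blood endothelial cells of all 3 classes and of the gap between them were ordered by arterial UMIs, and levels are given here as a description, since the order uses the rule. Median depth was 3402.5 and 4143 UMIs per cell with 3 or 4 arterial UMIs and 4844 and 5395.5 with 10 or more. Levels are sums over cells, and whether single cells or the mix of cells changed was not tested. Gja4 stood at 97.9 and 106 CPM in cells of libraries 1 and 2 with 0 arterial UMIs, 276 and 254 with 3 or 4, 376 and 432 with 5 to 9 and 669 and 671 with 10 or more. Fn1 went from 6.99 and 16.4 through 87.3 and 142 to 522 and 569 CPM and Vegfc from 11.7 and 11.8 through 64.3 and 86.7 to 325 and 358 over the cells with 0, 3 or 4 and 10 or more. Jag1 stood at 106 and 74.1 CPM at 0 and 96.6 and 109 at 2 arterial UMIs, lower in library 1 and higher in library 2, and at 572 and 537 at 10 or more. Mgp stood at 1777 and 847 CPM with 10 or more against 43.7 and 67.1 with 5 to 9. Nkx2-3, at 391 and 445 CPM with 0 and 366 and 501 with 10 or more, showed no such gradient, and Tgfbr2, at 716 and 646 and 783 and 621, did not either. Aqp1, Cd36, Timp4, Car4 and Cxcl12 stood lower with 10 or more arterial UMIs than with 3 or 4, without a mirrored gradient below that. Aplnr did fall below that, with 192, 91.6, 83.3 and 50.5 CPM at 0, 1, 2 and 3 or 4 arterial UMIs in library 1. With 0 arterial UMIs, in library 1 cells of both capillary classes, Aqp1 stood at 2210, Cd36 at 2124.5 and Cxcl12 at 3682 CPM. These were below the library 1 levels with 3 or 4, while Timp4 at 319 and Car4 at 278 CPM were above them. Aqp1 stood at 2288 and 963 CPM in cells with 3 or 4 arterial UMIs, near the 1816 and 1027 of cells with 2, and at 64.1 and 225 in cells with 10 or more. Cd36 stood at 2398 and 1945 and 843 and 1035, Timp4 at 253 and 193 and 54.9 and 46.1, Car4 at 198 and 167 and 0 and 25.2, and Cxcl12 at 4494 and 2986 and 984 and 1279 CPM in cells with 3 or 4 and 10 or more. In cells with 2 arterial UMIs, Cd36 stood at 2169 and 1854, Timp4 at 323 and 184, Car4 at 249.9 and 248 and Cxcl12 at 4211 and 3290.3 CPM. Cells with 3 or 4 arterial UMIs thus still carried UMIs of the capillary genes Aqp1, Cd36, Timp4 and Car4 and of Cxcl12, Car4 at the level farthest below that of cells with 2 in library 2, so the name arterial stands for the class set by the rule and not for each of its cells. Taking only those cells as arterial left 1124 of 9729 genes called against Gpihbp1/Aqp1 capillary cells.

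**Figure D5:**
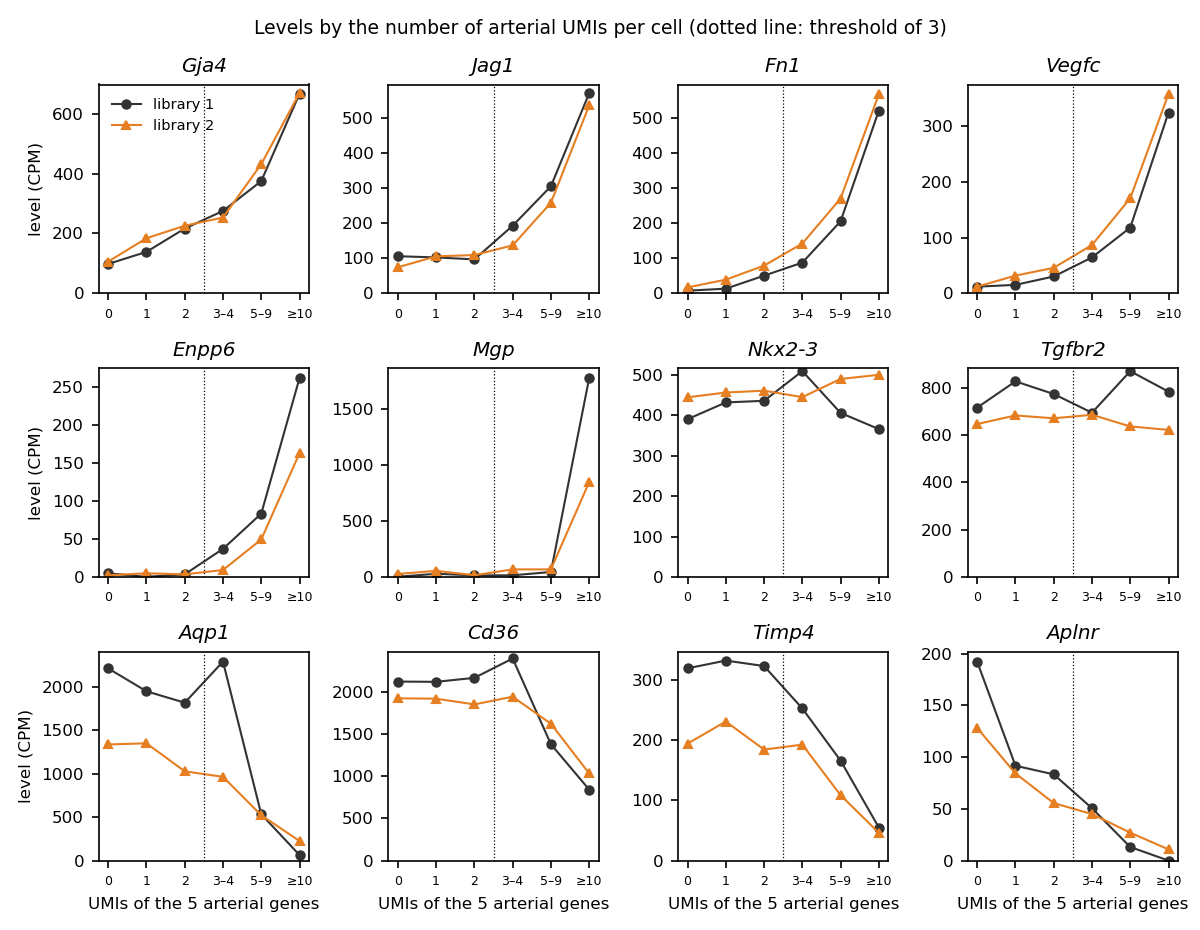
Level in CPM of 12 genes in blood endothelial cells binned by their UMIs of the 5 arterial genes, in library 1 (circles) and library 2 (triangles), with a dotted line at the threshold of 3. Gja4, Jag1, Fn1, Vegfc, Enpp6 and Mgp are highest at 10 or more, Nkx2-3 and Tgfbr2 have no steady trend, and Aqp1, Cd36, Timp4 and Aplnr are lowest at 10 or more.

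Shares of cells with a UMI were compared after thinning each cell to 2000 UMIs, which left out 21 and 29 arterial and 32 and 124 capillary cells. Gja4 was found in 43.7 and 48.2% of arterial cells of libraries 1 and 2 and 2.45 and 3.03% of capillary cells (without thinning 57.7 and 65.8% and 3.08 and 4.96%). Jag1 was found in 43.0 and 38.8% against 8.59 and 10.8% (without thinning 56.4 and 59.3% and 13.8 and 16.7%). Vegfc was found in 24.6 and 29.5% against 1.84 and 5.10% (without thinning 38.04 and 47.2% and 2.56 and 6.86%). The low shares on the capillary side can include free RNA in the droplets, which was not measured. On the capillary side, Timp4 was found in 60.1 and 49.3% of capillary and 14.8 and 9.94% of arterial cells (without thinning 67.2 and 55.6% and 22.1 and 16.3%). Cd36 was found in 98.8 and 97.6% against 75.4 and 80.3% (without thinning 98.5 and 98.1% and 82.8 and 90.9%), so nearly all cells of one class and most of the other held it. With thinned cells 1567 genes of 9194 tested were called.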

How the data were processed

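The authors deposited raw counts, whole numbers of UMIs per gene and barcode, in 1 matrix of 31053 gene rows per library, made with the Chromium 3' v3 chemistry per the labels' protocols. Per the submitters' processing notes, bcl2fastq 2.2, Cell Ranger 3.1.0 and build mm10 were used, while the annotation of genes was not given in the sources used here. Gene coordinates came from GENCODE on GRCm38 by gene ID, and 10670 of 10677 tested genes matched (99.9%). The members, gene lists and tests were chosen with earlier results of these data known. No deposited cell annotation was used here.

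UMIs were summed per library and class, giving 6 sums with the Plvap-high class. The 18 genes of the rule were left out of the test. Sums were fitted with edgeR 4.0.16 (quasi-likelihood, robust), TMM scaling, its expression filter at a minimum count of 10 and Benjamini-Hochberg adjustment at 0.05. The library entered as a block, since sums of the same library share a sample. There were 2 residual degrees of freedom and a median of 36.4 prior ones, so the spread behind the p-values was mostly borrowed across genes. The standard error is the absolute log2 fold change over the square root of F and can understate counting error near 0 UMIs. Folds against 0 UMIs are lower bounds against 3 counts over the class, and ratios with 1 to 3 UMIs have exact 95% intervals. Intervals and bounds cover counting error only. In simulated counts on 10417 genes for the same comparison, 73.2% of 97 genes changed by a log2 of 1 and 94.8% of 96 changed by 2 were recovered, with 4 false calls. These counts were drawn from the fit's own trend of spread, with the other genes equal between classes. The simulation therefore does not cover genes of wider spread or UMIs from other cell types.

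Scrublet called 4 (0.409%) and 5 (0.0824%) cells and was taken not to have worked, so no cell was removed as a doublet, and a run without the 5% of cells with the highest scores was an alternative. Genes named are those of the rule, the 15 largest increases and decreases (called, with 1 direction across libraries and 50 CPM or more on the higher side in each), and up to 5 members per list at 20 CPM or more, with the arterial and capillary lists open in full and cell type markers as a check, and a few of them are not reported here. Lists are described by counts and medians. Near-identical copies share reads, so Hspa1a, the haemoglobin and the Ifit and Ifitm genes are uncertain. Promoters came from RefSeq (8333 of 10677 tested genes matched by symbol). Alternatives changed the scaling, test, low-count filter, block, samples fitted, prior count, class thresholds, cell filters, cell numbers and depth. Those on arterial UMIs of 3 or 4 and of 10 or more, from at least 2 genes or above Plvap, Gpihbp1 and Aqp1, and on thinning before the rule, were added after seeing the data. Tools were R 4.3.3, DESeq2 1.42.0, Python 3.11.15 and scanpy 1.11.5.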

Additional observations from a re-analysis of the deposited data

How the results depend on the processing

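The 2145 calls between arterial and Gpihbp1/Aqp1 capillary cells stayed between 1434 and 2563 under the other alternatives, but came to 992 (623 higher, 369 lower) with DESeq2's Wald test and 1016 (599, 417) with no replicate block. They came to 1124 (668, 456) with arterial cells of 3 or 4 arterial UMIs and 1206 (695, 511) with equal numbers of 163 cells per class and library, where fewer cells and fewer genes were tested. The cause of the first pair of drops was not tested. Against Plvap-high cells, the 3053 calls of the Gpihbp1/Aqp1 class became 1349, 1444 and 1458 with DESeq2's Wald test, no replicate block and equal cell numbers. The 1708 calls of the arterial class became 587, 648 and 753 in the same order, 730 with 3 or 4 arterial UMIs and 1070 with cells thinned before the rule. Of 129 genes named as changed, DESeq2's Wald test lost 15, no replicate block 16, thinning 3 (Klf2, Nos3 and Dpt), equal cell numbers 6 and 3 or 4 arterial UMIs 15. DESeq2 size factors lost none, and no scaling lost Klf2 and Nos3. Directions reversed for Esm1 (-0.55 ± 0.46 with arterial UMIs above Plvap, Gpihbp1 and Aqp1), Nos3 (-0.20 ± 0.13 with 3 or 4 arterial UMIs) and Hba-a1 (7.23 ± 1.46 with capillary cells of 0 arterial UMIs). Dpt came to 2.99 with 3 or more Gpihbp1 plus Aqp1 UMIs and 0.43 with arterial UMIs above Plvap, Gpihbp1 and Aqp1. Acta2 came to 4.19 and 0.67 under these, 0.15 with 3 or 4 arterial UMIs, 0.48 with thinning, 1.87 with thinning before the rule and 2.37 with equal cell numbers. With each library alone, which allows no test, 56 (library 2) and 70 (library 1) of the 129 values moved by more than the SD between the libraries, and 13 and 29 by over 1.5 times. The range was -0.034 to 0.55 for Klf2, -5.62 to 1.32 for Hba-a1, -5.79 to 0 for Hba-a2, -8.34 to 0 for Hbb-bs, 4.27 to 6.86 for Igfbp4 and -0.57 to 0.77 for Acta2. These levels limit what depth can show: 3 UMIs over a class equal 0.562 CPM in arterial and 0.751 in capillary cells.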
